A study of Mus musculus with 2 samples.

Results

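The genes described here are regulators of G protein signalling (RGS proteins) and RGK small GTPases. They were the rows of the deposited table whose name was one of 10 listed symbols, Rgs16, Rgs2, Rgs4, Rgs8, Rgs9, Rgs17, Gem, Rem1, Rem2 and Rrad. Of these, 9 were found among the 30868 features of the table, 6 RGS genes and 3 RGK genes, and Rem1 was not analysed here. Rgs16 and Gem were listed because of their higher RPKM in the treated library, that is, these 2 were chosen by their RPKM values in this same contrast, so the values of all members between the libraries are a description. The study sequenced RNA of MIN6, an insulin-secreting mouse insulinoma line used as a model of the beta cell. There were 2 libraries, 1 labelled high glucose and palmitate and 1 labelled normal. The treatment text gives a medium with 0.5% bovine serum albumin, palmitate at 0.4 mmol/l and glucose at 33.3 mmol/l. Both sample records carry that same text, so what the normal library's cells were kept in, palmitate included, is not known from them. The series concerns lactate dehydrogenase A, histone lactylation and beta cell function when glucose is toxic, and no genetic change of the cells is given for either library.

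RGS proteins bind the active alpha subunit of a heterotrimeric G protein and speed its hydrolysis of GTP, which shortens the signal of the receptor that activated it. RGK proteins (Rad, Rem, Rem2 and Gem/Kir) are Ras-related GTPases that bind the beta subunits of high voltage activated calcium channels and reduce the calcium current. Both families act on steps that set insulin release in beta cells, the first on receptor signals and the second on calcium entry.

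Recovered from the RPKM values, the treated library held 43727919 reads assigned to features and the normal library 44149406. RPKM scales reads by feature length and by the library's total, so levels can be compared between genes. With 1 library per condition, no difference has a replicate check and no p-value was computed. Brackets hold exact 95% intervals, which reflect counting error alone and describe the pair of libraries rather than the conditions. Differences on a log2 scale were taken after adding 0.5 RPKM, among the 13947 features whose mean RPKM was 1 or more, and all 9 members passed that filter. The beta cell label fits the markers, since Ins2 stood at 725.4 RPKM in the treated and 1197 RPKM in the normal library, and Iapp at 4692 and 4664 RPKM in the same order. Of the 10 beta cell markers, 9 had an interval below a ratio of 1, against 22.3% of all features. In bulk RNA, fewer cells of a type and less RNA per cell cannot be told apart. Of 18 markers of exocrine and duct cells, fibroblasts, endothelium and macrophages, 14 were listed and summed to 3.06 RPKM in the treated and 1.98 RPKM in the normal library. The only one with a mean of at least 1 RPKM was the macrophage marker Cd68, at 2.02 RPKM in the treated and 0.901 RPKM in the normal library. Of the other macrophage markers, Csf1r was lower, at 0.222 RPKM in the treated and 0.357 RPKM in the normal library. Ptprc had 63 and 57 reads in the same order, and Adgre1 had 0 and 2. Markers of alpha cells summed to 101.1 RPKM in the treated and 84.8 RPKM in the normal library, and those of delta cells to 15.3 and 12.6 RPKM in the same order. Among the alpha cell markers, the glucagon gene Gcg was lower, at 4.68 RPKM in the treated and 7.31 RPKM in the normal library, while Ttr, at 65.0 and 57.0 RPKM, and Gc, at 31.5 and 20.5 RPKM in the same order, were higher. The part of these cell types in the values below was not tested.

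The stretches before the start sites of 3 members are shown because these genes belong to the R4 subfamily, the small RGS proteins, lie on the same chromosome, have a single window each, and had the ratios of 2.38, 1.34 and 1.15 described below. Each line gives the 250 bases before the start, 5′ to 3′ on the strand of the gene, from RefSeq on GRCm38.p6. Capitals mark the core of the cAMP response element (TGACG, or CGTCA on the other strand) and the CCAAT box (CCAAT, or ATTGG on the other strand).
Rgs16 promoter (chr1:153740103-153740352, plus strand): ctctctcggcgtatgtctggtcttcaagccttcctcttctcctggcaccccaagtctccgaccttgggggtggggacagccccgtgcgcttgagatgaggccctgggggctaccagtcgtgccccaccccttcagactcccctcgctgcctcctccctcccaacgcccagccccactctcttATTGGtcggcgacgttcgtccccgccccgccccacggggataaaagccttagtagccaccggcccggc
Rgs2 promoter (chr1:144004150-144004399, minus strand): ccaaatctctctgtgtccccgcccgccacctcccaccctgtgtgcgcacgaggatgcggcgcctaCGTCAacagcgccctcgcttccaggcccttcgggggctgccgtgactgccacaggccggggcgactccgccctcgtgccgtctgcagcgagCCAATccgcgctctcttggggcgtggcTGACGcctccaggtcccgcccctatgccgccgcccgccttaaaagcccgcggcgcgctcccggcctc
Rgs4 promoter (chr1:169747643-169747892, minus strand): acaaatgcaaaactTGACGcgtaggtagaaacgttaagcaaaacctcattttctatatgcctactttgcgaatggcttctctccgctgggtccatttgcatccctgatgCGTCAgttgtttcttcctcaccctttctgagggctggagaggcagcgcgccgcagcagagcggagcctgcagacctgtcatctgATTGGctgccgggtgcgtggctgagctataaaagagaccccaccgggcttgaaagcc
The Rgs16 window held 1 CCAAT box and no TGACG on either strand. The Rgs2 and Rgs4 windows each held 1 CCAAT box and 2 TGACG cores, and the marked stretches do not overlap. Rgs8, of the same subfamily and chromosome, has 3 windows, of which 1 held a TGACG core and the other 2 a CCAAT box each. Over the 32851 promoter windows of the same length in that table, 17.8% held TGACG and 33.8% held CCAAT on either strand. None of the 3 windows held the full element TGACGTCA or the E-box CACGTG, which were found in 1.55% and 6.02% of all windows. These matches describe letters in a window and say nothing of binding. Windows were found for 8 of the 10 symbols, and those of Rgs8, Rgs9, Rgs17, Rem1 and Rem2 did not hold the full element or the E-box either.

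Rgs16 and Gem stood apart from the other members in the size of their difference between the libraries. They were the 2 members at least 2-fold higher in the treated library, against 0.538% of all 13947 features, and both had been listed for being higher. No member was at least 2-fold lower, which 0.366% of all features were. The remaining 7 had plain RPKM ratios between 1.05 and 1.34, so none of them reached 1.5-fold, the size reached upwards by 1.74% of all features. The median log2 difference of the 9 members was 0.28, and it was 0.20 without Rgs16 and Gem. Over all features the median was 0.0028, the 5th percentile was -0.36 and the 95th percentile 0.35. All 9 members lay above 0, as did 50.7% of all features, and the counting interval lay above 1 for 6 members, against 22.0% of all features. Both counts include Rgs16 and Gem, whose part in them was set by the choice of members. The other members with an interval above 1 were Rgs2, Rgs4, Rgs8 and Rgs9.

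**Figure D1:**
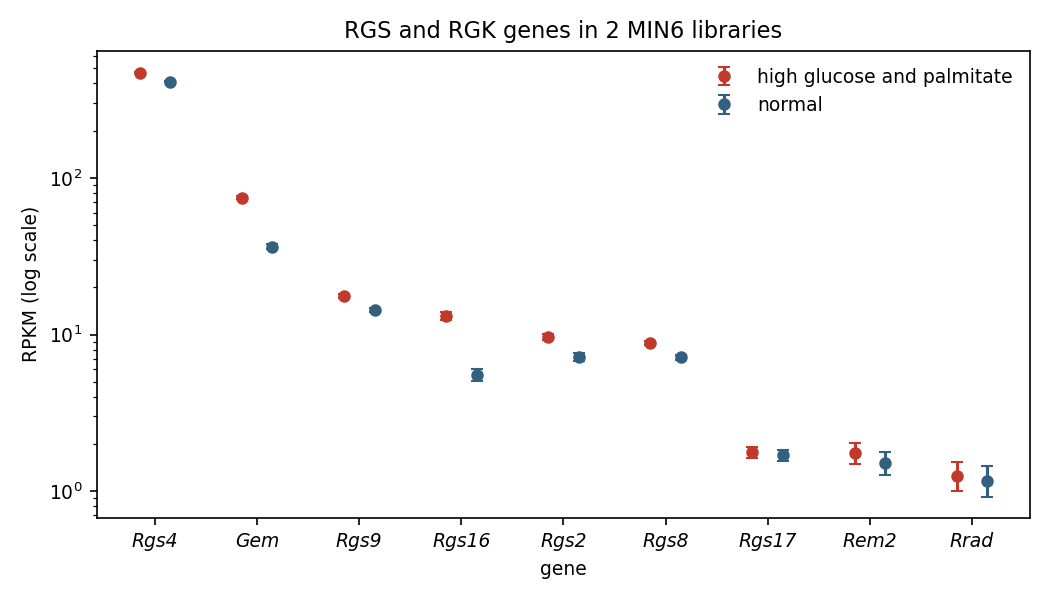
RPKM on a log axis of the 9 members in the library labelled high glucose and palmitate (red, left of each pair) and in the normal library (blue, right), with exact 95% counting intervals as bars. Rgs4 is the highest in both libraries at 469.7 and 409.8 RPKM, and the pairs of Rgs16 and Gem are the most widely spaced.

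Levels spanned a wide range within both families. In the treated library the order from high to low was Rgs4, Gem, Rgs9, Rgs16, Rgs2, Rgs8, Rgs17, Rem2 and Rrad. In the normal library Rgs16 came sixth, behind Rgs2 and Rgs8, and the others kept their order. Neighbours whose counting intervals overlapped were Rgs17 with Rem2 in both libraries and Rgs2 with Rgs8 in the normal library, at 7.20 and 7.17 RPKM. Rem2 and Rrad also overlapped in both libraries, with the upper bound of Rrad at 1.54 RPKM in the treated library just above the lower bound of Rem2. Among all features, Rgs4 ranked number 65 by RPKM in the treated and 77 in the normal library, and Gem ranked 580 and 1383 in the same order. Rgs16 ranked 3904 in the treated and 7235 in the normal library.

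Rgs16 encodes a small RGS protein of the R4 subfamily that acts on Gi and Gq alpha subunits. It stood at 13.1 RPKM in the treated library (12.4 to 13.9, from 1344 reads) and at 5.52 RPKM in the normal library (5.08 to 5.99, from 570 reads). The level in the treated library was the higher one and the intervals did not overlap. The ratio was 2.38 (2.16 to 2.63) and the log2 difference 1.18. By that difference Rgs16 ranked 47 among the 13947 features, and 12 among the 13207 of them with at least 300 bases. On GRCm39 the gene covers bases 153616095 to 153621214 of chromosome 1 in 5 exons, on the plus strand.

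A predicted gene overlaps Rgs16 and showed nearly the same ratio. Gm28513, on the minus strand, shares 236 bases with exon 5 of Rgs16, which is 38.5% of the length of Gm28513. It stood at 12.4 RPKM in the treated and 5.10 RPKM in the normal library, from 332 and 138 reads, a ratio of 2.43 (1.99 to 2.98). The sources do not say whether strand was used in counting, so reads in the shared bases cannot be assigned to either gene. The neighbour C230024C17Rik, 2.52 kb before the start, had 2 reads in the treated and 0 in the normal library.

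Rgs8, another member of the R4 subfamily and known from brain, lies 40.0 kb upstream of Rgs16 on the same strand, at 153528771 to 153576069. It stood at 8.80 RPKM in the treated and 7.17 RPKM in the normal library, from 3710 and 3050 reads. The ratio of 1.23 (1.17 to 1.29) was lower than that of Rgs16, with intervals that did not overlap. Per length, Rgs16 was at 1.49 times the level of Rgs8 in the treated library and at 0.770 times in the normal library, so their order was reversed between the libraries. Rgs8 also overlaps a predicted gene of the minus strand, Gm29529, by 70 bases in exon 9. That gene stood at 19.2 RPKM in the treated and 15.7 RPKM in the normal library, with the ratio of 1.22 (1.08 to 1.38) close to that of Rgs8.

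Rgs2 and Rgs4, also of the R4 subfamily and on chromosome 1, were higher by smaller factors. Rgs2, which acts with preference on Gq alpha subunits, stood at 9.64 RPKM in the treated and 7.20 RPKM in the normal library, from 1529 and 1153 reads. Its ratio of 1.34 (1.24 to 1.45) was the third highest of the members. Rgs2 lies at 143875076 to 143879899 on the minus strand and overlaps no other listed feature.

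Rgs4, which limits Gi and Gq signals and has been linked to muscarinic receptor signals in mouse beta cells, was the most abundant RGS gene. It stood at 469.7 RPKM in the treated library (466.0 to 473.3) and at 409.8 RPKM in the normal library (406.4 to 413.2), from 63624 and 56052 reads. The ratio was 1.15 (1.13 to 1.16), and the difference in level of 59.8 RPKM exceeded those of Gem, at 38.3 RPKM, and Rgs16, at 7.62 RPKM. Rgs4 made up 85.5% of the summed RPKM of the 18 listed RGS genes of the R4, R7, RZ and R12 subfamilies in the treated and 86.1% in the normal library. It was at 35.7 times the level of Rgs16 in the treated library and at 74.2 times in the normal library. The gene lies at 169569046 to 169575211 on the minus strand, 45.7 kb from Rgs5, which stood at 0.443 RPKM in the treated and 0.578 RPKM in the normal library.

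Rgs9 and Rgs17 represent 2 other subfamilies. Rgs9 belongs to the R7 subfamily, whose proteins pair with the G protein subunit encoded by Gnb5, and is known for ending the light response in photoreceptors. It stood at 17.5 RPKM in the treated and 14.3 RPKM in the normal library, from 4900 and 4031 reads, a ratio of 1.23 (1.18 to 1.28). Rgs17, of the RZ subfamily that acts on Gi and Gz alpha subunits, stood at 1.77 RPKM in the treated and 1.70 RPKM in the normal library, from 644 and 622 reads. Its ratio of 1.05 (0.935 to 1.17) was the lowest of the members and its interval included 1. Rgs9 covers bases 109116181 to 109188955 of chromosome 11 and Rgs17 bases 5775663 to 5872400 of chromosome 10, both on the minus strand and without overlap.

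The RGS genes outside the list had ratios on both sides of 1. Of 16 further RGS genes, 14 were listed and 6 reached a mean of 1 RPKM, with a median log2 difference of -0.036 and none past 1.5-fold. Rgs3, of the R4 subfamily, was lower, with 3.50 RPKM in the treated and 4.86 RPKM in the normal library and a ratio of 0.721 (0.677 to 0.768). Rgs7, of the R7 subfamily, had 7.56 RPKM in the treated and 8.26 RPKM in the normal library, for a ratio of 0.916 (0.862 to 0.974). Rgs11, also of the R7 subfamily, Rgs12, Rgs10 and Rgs19 had intervals that included 1. Summed over each subfamily, R4 genes without Rgs4 came to 35.5 RPKM in the treated and 25.3 RPKM in the normal library, and R7 genes to 32.1 and 29.2 RPKM in the same order. The RZ genes summed to 5.60 RPKM in the treated and 5.62 RPKM in the normal library, and the R12 genes to 6.13 and 6.20 RPKM. Rgs16 made up 16.6% of the total of these subfamilies besides Rgs4 in the treated and 8.32% in the normal library.

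**Figure D2:**
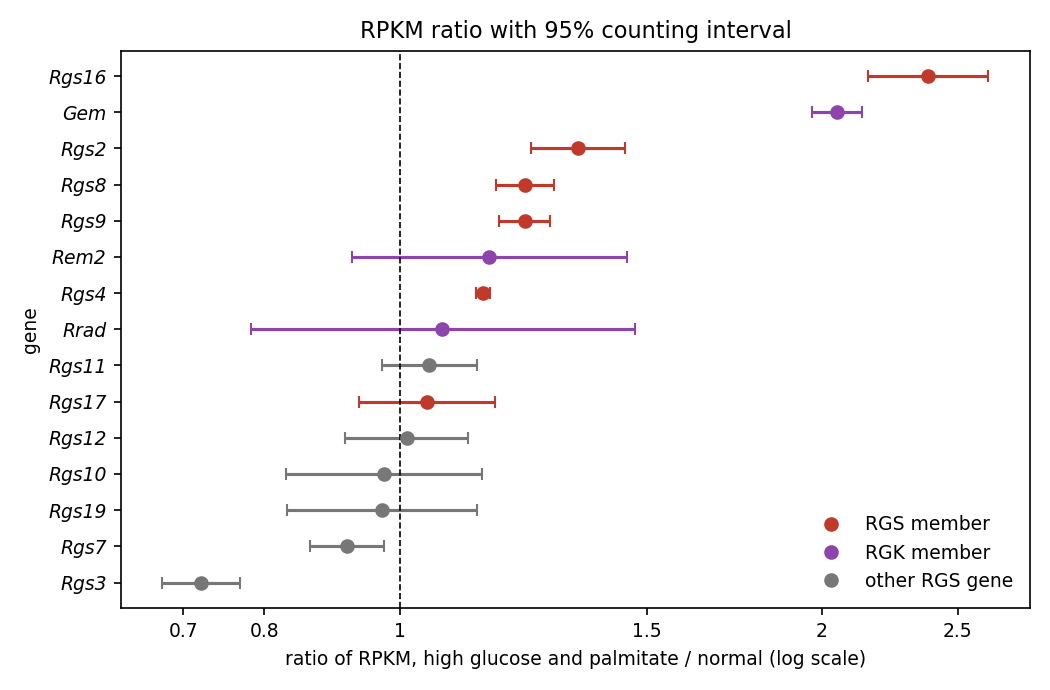
Ratio of RPKM in the library labelled high glucose and palmitate to the normal library, on a log axis, for the 9 members and the 6 other RGS genes with a mean of at least 1 RPKM. Bars are exact 95% counting intervals and the dashed line marks a ratio of 1. Rgs16 at 2.38 and Gem at 2.05 lie apart from the rest, and Rgs3 at 0.721 is the lowest.

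Gem was the main RGK gene of these cells. The protein, also called Kir/Gem, is known to reduce calcium currents and, when overexpressed, calcium-triggered secretion of hormone-secreting cells. Gem stood at 74.6 RPKM in the treated library (72.9 to 76.4, from 6868 reads) and at 36.4 RPKM in the normal library (35.2 to 37.6, from 3381 reads). The treated library was higher and the intervals were far apart, with a ratio of 2.05 (1.97 to 2.14) and a log2 difference of 1.03. Gem ranked 68 among all measured features by that difference and 23 among those of at least 300 bases. It made up 96.1% of the summed RPKM of the 3 RGK genes in the treated and 93.2% in the normal library. The gene covers bases 11704457 to 11714752 of chromosome 4 in 5 exons, on the plus strand, and overlaps no other listed feature. Of its nearest neighbours, Rad54b was lower, with 10.7 RPKM in the treated and 12.9 RPKM in the normal library, and Cdh17 had 14 and 22 reads in the same order.

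Rem2 and Rrad were close to the lowest measured level. Rem2, an RGK gene expressed in brain and also studied in insulin-secreting cells, stood at 1.75 RPKM in the treated and 1.51 RPKM in the normal library. From 172 and 150 reads, its ratio of 1.16 (0.925 to 1.45) had an interval that included 1. Rrad encodes Rad, named for its association with diabetes in human muscle. It stood at 1.25 RPKM in the treated and 1.16 RPKM in the normal library, from 86 and 81 reads, and the ratio of 1.07 (0.782 to 1.47) also had an interval that included 1. A difference of these sizes was not detectable at this depth. Both upper bounds lie below the ratio of Gem. Per length, Gem was at 42.7 times the level of Rem2 and 59.9 times that of Rrad in the treated library, against 24.1 and 31.3 times in the normal library. Rem2 covers bases 54713557 to 54717888 of chromosome 14 (plus strand), and Rrad bases 105354702 to 105357959 of chromosome 8 (minus strand). Rrad shares 141 bases of exon 2 with Gm33023, a predicted gene of the plus strand with 11 reads in the treated and 15 in the normal library.

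**Figure D3:**
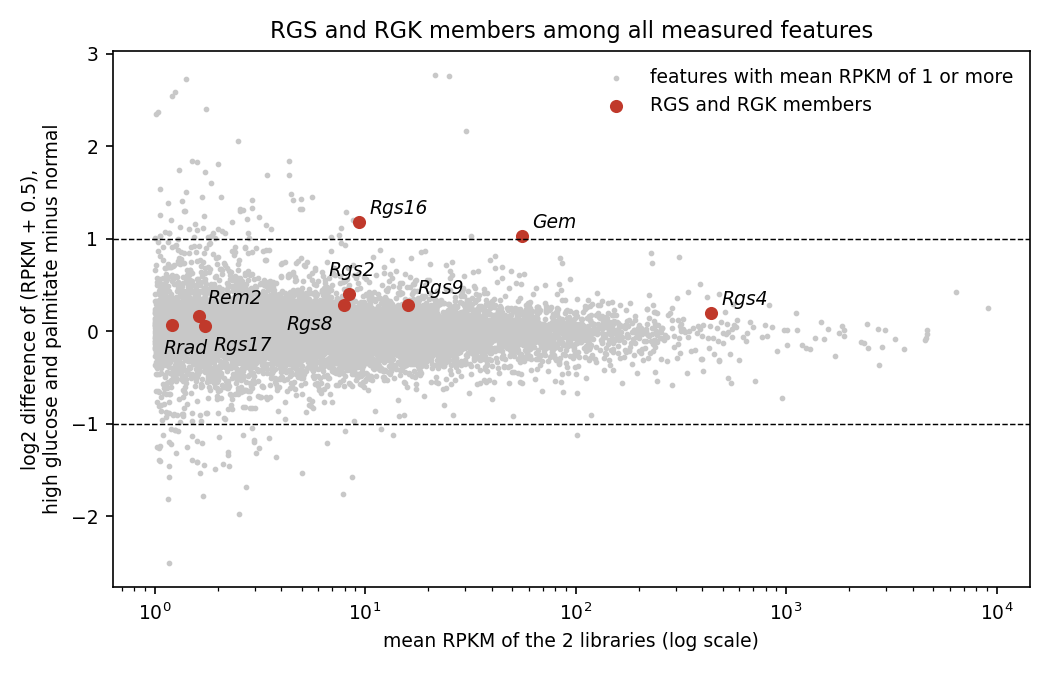
Log2 difference of RPKM plus 0.5 between the library labelled high glucose and palmitate and the normal library, against the mean RPKM on a log axis, for 13947 features (grey) and the 9 members (red). Dashed lines mark 2-fold. Rgs16 and Gem lie above the upper line, at 1.18 and 1.03, and the other members lie between 0.05 and 0.40.

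The genes most like Rgs16 and Gem were taken as those of nearest log2 difference among symbols with at least 300 bases and a mean of at least 5 RPKM. With 2 libraries this likeness rests on a single difference. The 3 nearest to Rgs16 were Cpt1a, Gem and Lbh, and the 3 nearest to Gem were Lbh, Cpt1a and Rgs16. Cpt1a, which encodes the carnitine palmitoyltransferase of the outer mitochondrial membrane, stood at 10.7 RPKM in the treated and 4.70 RPKM in the normal library, a log2 difference of 1.11. Lbh, a gene of limb bud and heart development, stood at 9.39 RPKM in the treated and 4.39 RPKM in the normal library, with a log2 difference of 1.02.

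The measured genes of G protein subunits and of R7 partners differed by less than 1.5-fold, and most alpha subunit genes were lower. Of 13 genes of G protein alpha subunits, 11 were measured, none passed 1.5-fold, and the median log2 difference was -0.073. Of the 11, 10 were lower in the treated library, while 50.7% of all features lay above 0. Gnai2, the most abundant of them and a substrate of most R4 proteins, stood at 87.3 RPKM in the treated and 106.5 RPKM in the normal library, for a ratio of 0.819 (0.801 to 0.837). Gna11 had a ratio of 0.828, Gna12 one of 0.828 and Gnai1 one of 0.808, while Gnas, which encodes the stimulatory subunit, stood at 40.0 RPKM in the treated and 40.1 RPKM in the normal library. Gnao1 was the exception, with 33.9 RPKM in the treated and 32.5 RPKM in the normal library. Beta and gamma subunits had a median of 0.033 over 9 measured genes, 5 of them above 0 and 4 below. The abundant Gnb1 stood at 44.8 RPKM in the treated and 49.7 RPKM in the normal library, and Gng12 at 31.6 and 34.1 RPKM in the same order. Gng10 had a ratio of 1.16 (1.00 to 1.34) and Gng4 one of 1.11 (1.01 to 1.21). After the same scaling, the intervals of Gng10 and Gng4 included 1. Among the partners of R7 proteins, the membrane anchor gene Rgs7bp had a ratio of 1.17 (1.09 to 1.25), Gnb5 one of 1.09 (0.985 to 1.22) and the receptor gene Gpr158 one of 0.923.

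The listed G protein coupled receptors went both ways, and not all of them signal through alpha subunits on which RGS proteins act. Of 14 listed Gi or Go coupled ones, 3 were measured. Adra2a, the adrenergic receptor that inhibits insulin release, stood at 17.3 RPKM in the treated and 12.8 RPKM in the normal library, for a ratio of 1.35 (1.28 to 1.42). The somatostatin receptor gene Sstr5 stood at 2.06 RPKM in the treated and 1.42 RPKM in the normal library, for a ratio of 1.45 (1.19 to 1.78). Sstr3, at 18.2 RPKM in the treated and 20.4 RPKM in the normal library, was lower. The list's median of 0.42 depends on the filter and was -0.0099 with no filter on low values. All 6 measured Gq or Gs coupled receptors were lower, with a median of -0.27, and the counting interval lay below 1 for each, against 22.3% of all features. That of Gipr ended just under 1. It ran from 0.818 to 1.04 with counts scaled down as if both mates of every pair had been counted. The 6 ran from a ratio of 0.713 for Ffar1 to 0.920 for Gipr. Glp1r, the most abundant, stood at 126.6 RPKM in the treated and 149.2 RPKM in the normal library. Receptors of this list below the filter went the other way. Adora2a had 36 reads in the treated and 18 in the normal library, for a ratio of 2.02 (1.12 to 3.78). After that scaling its interval included 1. Casr had 71 and 56 reads in the same order, with an interval that included 1, and Gcgr had 4 and 0. With no filter the list's median was -0.21. Other regulators of G alpha subunits had a median of 0.043 over 8 genes, with the receptor kinase gene Grk5 lowest at 5.39 RPKM in the treated and 7.88 RPKM in the normal library, for a ratio of 0.684 (0.642 to 0.728).

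The channels on which Gem acts were nearly level between the libraries. Of 14 genes of high voltage activated calcium channel subunits 7 were measured, none passed 1.5-fold, and the median log2 difference was -0.024. The beta subunit genes, whose products RGK proteins bind, had ratios of 0.988 for Cacnb1, 0.983 for Cacnb3 and 0.954 for Cacnb2, each with an interval that included 1. Cacnb4, below the filter with 144 reads in the treated and 185 in the normal library, had one of 0.786 (0.628 to 0.982). With counts scaled down as if both mates of every pair had been counted, its interval ran from 0.567 to 1.07. Cacna1c was lowest of the measured genes, with 4.36 RPKM in the treated and 4.94 RPKM in the normal library, for a ratio of 0.882 (0.846 to 0.919). Cacna1d, the gene of another pore subunit used by beta cells, had one of 0.970 (0.909 to 1.04). Per length, Gem was above each of these genes in both libraries, since the highest, Cacna2d1, stood at 13.0 RPKM in the treated and 12.7 RPKM in the normal library. Other binding partners of RGK proteins, calmodulins and 14-3-3 proteins among them, had a median of -0.035 over 12 genes, 6 on either side of 0. The lowest was Ywhah at a ratio of 0.806 and the highest Ywhag at 1.10, and the most abundant, Calm2, stood at 1162 RPKM in the treated and 1323 RPKM in the normal library. Among other Ras-related GTPases, 4 were measured with a median of 0.057, and Diras1 was the highest of them at 31.5 RPKM in the treated and 28.2 RPKM in the normal library.

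**Figure D4:**
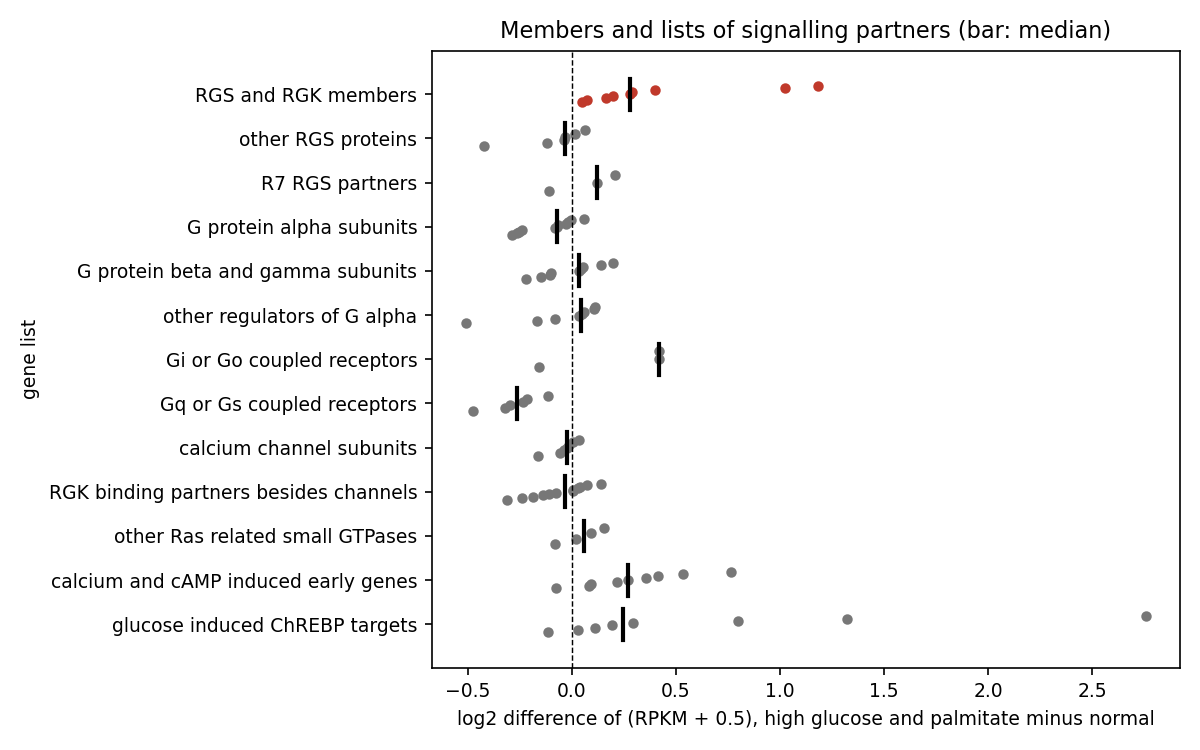
Log2 difference of RPKM plus 0.5 between the library labelled high glucose and palmitate and the normal library, for the 9 members (red) and for the measured genes of 12 lists of signalling partners and induced genes (grey), with a black bar at each median. The medians are 0.28 for the members, -0.073 for alpha subunits, -0.024 for calcium channel subunits and 0.27 for early genes.

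Rgs2 and Gem are also known as early-response genes, and Rgs16 has been described as glucose-responsive. Of 16 early genes induced by calcium and cAMP 9 were measured, with a median log2 difference of 0.27. Of these 9, 8 were higher in the treated library, against 50.7% of all features. On the scale of RPKM plus 0.5, Nr4a2, a nuclear receptor gene, was the only one past 1.5-fold, at 4.34 RPKM in the treated and 2.34 RPKM in the normal library, for a ratio of 1.85 (1.64 to 2.09). Fos, a subunit of the AP-1 factor, stood at 4.40 RPKM in the treated and 2.89 RPKM in the normal library, with a plain ratio of 1.52 (1.31 to 1.77) and a log2 difference of 0.53 on that scale, short of 1.5-fold. Junb, the most abundant, had a ratio of 1.16 and Crem, which encodes a cAMP-responsive factor, one of 1.38. Of 8 targets of the glucose-sensing factor ChREBP 7 were higher, against 50.7% of all features, with a median of 0.24. Past 1.5-fold upwards were 3 of them, against 1.74% of all features. Both this list and that of early genes were written with earlier results of these data known. Txnip stood at 44.2 RPKM in the treated and 6.11 RPKM in the normal library, and Arrdc4 at 3.86 and 1.24 RPKM in the same order, so both had larger ratios than Rgs16. Klf10, the third, had a ratio of 1.79, below that of Gem. The rest of the list differed less. Gpd1 had a ratio of 1.24 (1.15 to 1.33) and Acaca one of 1.17 (1.10 to 1.23). The intervals of Pklr, at 1.10 (0.922 to 1.32), and Fasn, at 1.02 (0.969 to 1.08), included 1. Mlxipl was lower, at 0.923 (0.889 to 0.959).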

How the data were processed

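RNA-seq of 2 MIN6 libraries was used. The authors deposited RPKM per feature with length and exon coordinates. Trimmomatic 0.36, edgeR 3.12.1 and the build GRCm39 are named, per the submitters' processing notes. Not given in the sources used here are the aligner, the counting tool and the use of strand. Columns were assigned by name, which equals the sample title.

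RPKM times length gave whole reads for 100% of values within 0.01 read. Exact intervals were Clopper-Pearson for ratios and Poisson for levels. Among features with 1 to 20 reads, 76.6% of counts were even in the treated and 75.9% in the normal library, as would arise if both mates of a pair were counted, so intervals may be too narrow. The steps were tested on simulated data. Python 3.11.15, pandas 2.3.3 and SciPy 1.17.1 were used.

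Members and lists were chosen with earlier results of these data known. All members were named, with list genes past 1.5-fold, up to 4 of largest difference and the 2 most abundant, as far as values were needed. Nearest and overlapping features, and the 3 genes of nearest difference to Rgs16 and Gem, were named too, and a gene this rule takes is not reported here. Promoters came from RefSeq on GRCm38.p6, and coordinates of genes from the table.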

Additional observations from a re-analysis of the deposited data

How the results depend on the processing

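The median log2 difference of the members, 0.28, ranged from 0.24 over the 6 members that overlap no other feature to 0.29 with a pseudocount of 0.1. Rgs16 and Gem were the 2 members past the fold threshold under every alternative tried. These were pseudocounts of 0.1 and 1, median-of-ratios scaling, an equal total without the 10 most abundant features, no filter, a mean of at least 5 RPKM and a 1.5-fold threshold. Both genes had been listed for being higher, and at their levels the changed filters and the lower threshold could not take them out. Gem lay close to the 2-fold line, with a log2 difference from 1.01 with median-of-ratios scaling to 1.03 with a pseudocount of 0.1. The interval lay above 1 for the same number of members, 6, when counts were scaled down as if both mates of every pair had been counted. Counts over all features moved more, from 75 higher and 51 lower. A pseudocount of 0.1 gave 105 higher and 82 lower, and a pseudocount of 1 gave 46 higher and 33 lower. No filter gave 201 higher and 146 lower, a mean of at least 5 RPKM gave 13 and 8, and a 1.5-fold threshold gave 243 and 207. No paired analysis was possible because each group has 1 library. Leaving out a library was not possible for the same reason, so no value here has a replicate check. Depth limits Rem2 and Rrad, with at most 172 reads in either library.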

Other observations

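Several RGS genes were at or near 0 in these cells. No reads were found in either library for Rgs18, Rgs21 and Rgsl1. Rgs6 had 0 reads in the treated and 2 in the normal library, and Rgs14 had 4 and 0 in the same order. Rgs22 had 4 reads in the treated and 2 in the normal library. Rgs20, of the RZ subfamily, stood at 0.507 RPKM in the treated and 0.497 RPKM in the normal library, below the filter.

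Some early genes below the filter were also higher in the treated library. Nr4a3 stood at 0.588 RPKM in the treated and 0.280 RPKM in the normal library, from 154 and 74 reads, a ratio of 2.10 (1.58 to 2.81). Nr4a1 had 1.19 RPKM in the treated and 0.633 RPKM in the normal library, for a ratio of 1.88 (1.46 to 2.42). Sstr2, a somatostatin receptor gene, had 104 reads in the treated and 74 in the normal library, for a ratio of 1.42 (1.04 to 1.94). With counts scaled down as if both mates of every pair had been counted, its interval ran from 0.913 to 2.22. Other Gi or Go coupled receptors below the filter went both ways. Adra2c had 4 reads in the treated and 2 in the normal library, Hcar1 had 0 and 1, and Adra2b had none. Ptger3, Cnr1 and Galr1 were lower in the treated library. Ptger3 had a ratio of 0.589 (0.393 to 0.874), Cnr1 one of 0.791 (0.659 to 0.948) and Galr1 one of 0.771 (0.596 to 0.995). Their intervals also included 1 after that scaling.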
